A study of Mus musculus with 18 samples.

Results

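The liver X receptors (LXRs), the genes that they switch on and the enzyme that makes one of their ligands were followed in bone marrow-derived macrophages (BMMs) as a set of 10 genes. The 10 genes were chosen by name (Nr1h2, Nr1h3, Abca1, Abcg1, Apoe, Mylip, Srebf1, Scd1, Lpcat3 and Ch25h), each matched 1 Ensembl identifier, and all 10 were found among the 38887 genes of the tables. RNA was sequenced from BMMs of C57BL/6J mice, female by the labels and 10 to 23 weeks old, of 3 genotypes, either untreated or given lipopolysaccharide (LPS), a ligand of Toll-like receptor 4 from bacteria, at 100 ng/ml for 4 h. Each of the 6 groups held 3 libraries, 18 in all. GILZ (gene Tsc22d3) is a glucocorticoid-induced leucine zipper protein. GILZ KO mice carried loxP sites on both sides of Gilz exon 6 together with Cre recombinase expressed from the endogenous Lyz2 locus, which is active in myeloid cells. GILZ TG mice carried a Gilz-1 cDNA in the ROSA26 locus behind a loxP-flanked stop cassette, with the same Lyz2-Cre. The animals called WT were described as Lyz2-Cre mice without either Gilz allele, so all 3 genotypes were described as carrying Cre. Bone marrow cells were grown for 6 days with 50 ng/ml M-CSF in 10% serum before treatment. The study describes the 3 libraries of a group as independent preparations from separate mice, which the labels do not state.

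LXRs are nuclear receptors that bind DNA as partners of retinoid X receptors and are switched on by oxysterols, which are oxidised forms of cholesterol. In macrophages that take up lipid they raise the transporters and lipoproteins that move cholesterol out of the cell, lower uptake of low-density lipoprotein, and start fatty acid synthesis and membrane phospholipid remodelling. Their sites in DNA are usually direct repeats of a hexamer separated by a 4-base gap, called DR4 elements.

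The libraries held between 14583055 and 38557029 expected counts (median 24450362), with the GILZ KO libraries after LPS lowest (14583055 to 22640548). The targeted gene Tsc22d3 was checked against the labels. In length-corrected transcript units (TPM, as deposited) it stood at 15.8, 14.9 and 18.8 in untreated WT, at 1.89, 2.81 and 2.31 in GILZ KO and at 156, 160 and 152 in GILZ TG. After LPS it stood at 4.56, 5.81 and 5.09 in WT, at 2.96, 3.28 and 2.5 in GILZ KO and at 127 to 141 in GILZ TG. GILZ KO was then below WT without overlap, but the log2 fold change of −0.69 did not pass (edgeR adjusted p = 0.15), against −2.74 untreated (adjusted p = 2.16e-05). Lyz2 was not alike in the 3 genotypes although all were described as carrying Lyz2-Cre: it was listed at 11048, 12070 and 15401 TPM in untreated WT and at 17.2 to 53.1 TPM in untreated GILZ KO and GILZ TG, so that a comparison with WT also compares different Lyz2 levels. The macrophage markers Adgre1 (434 to 868 TPM), Csf1r and Cd68 were high in all 18 libraries, and the 7 macrophage markers summed to 3825.4 to 5020.7 TPM. The summed adipocyte, T cell, erythroid and dendritic cell markers did not exceed 0.9 TPM in any library, and those of 5 endothelial markers were 3.3 to 4.9 TPM untreated and 8.1 to 13.3 TPM after LPS. Libraries 1 and 2 of GILZ TG stood apart, untreated and after LPS: the summed TPM of 10 stromal fibroblast markers was 88.7 to 126 there and 5.5 to 26.2 in the other 14 libraries, and that of 8 neutrophil lineage markers was 187 to 516 against 20.7 to 83.5. The 7 B cell markers summed to 81.7 to 157.8 TPM in these libraries and to 16.8 to 36.1 TPM in the others. The immunoglobulin transcript Igkc stood at 42.3 to 97.4 TPM in these libraries, at 11.4 and 7.3 TPM in library 3 of GILZ TG and at no more than 2.2 TPM elsewhere, while the defining markers Ly6g (neutrophil) and Lum (fibroblast) did not exceed 0.24 and 0.31 TPM in any library.

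Untreated BMMs of all 3 genotypes used the 10 genes in nearly the same order of level (TPM, which corrects for transcript length). Apoe was the most abundant, at 981 ± 580.5 TPM in WT (SD, n = 3), followed by Nr1h2 (80.2 ± 3.72 TPM), Srebf1 (64.1 ± 3.45 TPM) and Lpcat3 (51.6 ± 0.74 TPM), and at each of these steps every library of the higher gene lay above every library of the next. Abca1 (17.3 ± 5.92 TPM), Abcg1 (16.1 ± 3.45 TPM), Nr1h3 (13.8 ± 2.42 TPM) and Mylip (13.1 ± 3.27 TPM) formed a middle tier whose neighbours overlapped. Scd1 (1.77 ± 0.51 TPM) and Ch25h (0.94 ± 0.52 TPM) were lowest and overlapped each other. After LPS, Ch25h moved from the last place to the third in all 3 genotypes, behind Apoe and Nr1h2, although in WT its 3 libraries overlapped those of Nr1h2 and in GILZ KO and GILZ TG those of Lpcat3.

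**Figure D1:**
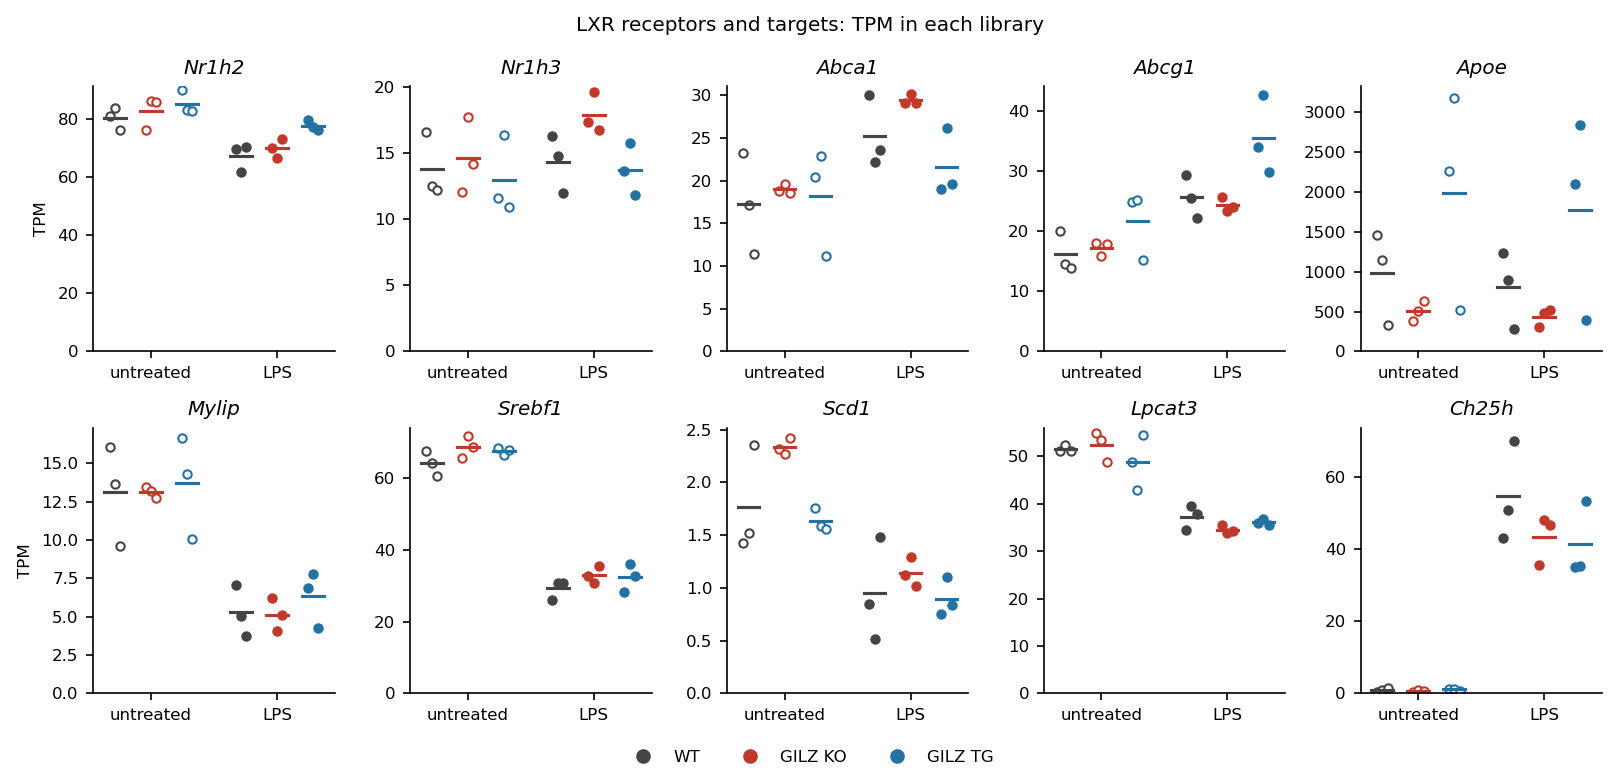
TPM of each gene (y axis, linear, from 0) in each of the 18 libraries, open circles untreated and filled circles after LPS, with short lines at the group means. Ch25h went from at most 1.49 TPM to at least 35.1 TPM. Srebf1 and Mylip lay lower after LPS in every genotype, as most genes did in TPM. Apoe was widely spread within WT and GILZ TG.

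LPS raised Abcg1 and Ch25h and lowered Srebf1 in all 3 genotypes, and raised Abca1 and lowered Mylip in WT and GILZ KO, under each of 3 scalings. For both receptors and for Lpcat3 the sign or the call depended on the scaling. With edgeR's TMM scaling, which sets the bulk of genes to no net change, 8 of the 10 genes passed an adjusted p of 0.05 in WT (6 higher, 2 lower), against 68.6% of the 13169 genes tested (33.5% higher, 35.1% lower). In GILZ KO 7 passed (5 higher, 2 lower; background 68.5%, with 33.2% higher and 35.4% lower), and in GILZ TG 7 passed (6 higher, 1 lower; background 68.7%, with 33.6% higher and 35.1% lower). LPS thus moved most of the transcriptome, and the share of the 10 genes that moved was near that background. Their median log2 fold change was 0.40 in WT, 0.48 in GILZ KO and 0.45 in GILZ TG, beside −0.02 over all genes tested in each genotype. When counts were scaled by the library total alone, the median over all genes shifted to −0.70 in WT, −0.66 in GILZ KO and −0.69 in GILZ TG, and in TPM (log2(TPM + 1)) to −0.51, −0.52 and −0.51. The share of called genes that were higher fell with it from 48.9% to 18.9% in WT, from 48.4% to 18.8% in GILZ KO and from 48.9% to 18.5% in GILZ TG by library total. In TPM, the LPS libraries lay without overlap above the untreated ones for 2 of the 10 genes and below for 4 in WT. Of all genes, 83.4% did not overlap there, 16.3% above and 67.1% below. In GILZ KO it was 3 above and 5 below (86.6% of all genes, 16.4% above and 70.1% below). In GILZ TG it was 2 above and 5 below (83.0% of all genes, 15.6% above and 67.4% below). A direction is therefore given below as holding across scalings only where TMM, library total and TPM share it. This asks little of a gene lower by TMM, as the other 2 scalings shift the median gene down. In WT, 4594 of the 4622 genes called lower by TMM stayed called under all 3, against 2041 of the 4415 called higher. Abca1, Abcg1 and Ch25h passed the threshold in WT as higher under all 3 scalings and Mylip and Srebf1 as lower. These were 5 genes of 10, beside 50.4% of all genes tested (15.5% higher, 34.9% lower). The same 5 genes did so in GILZ KO (background 50.2%, 15.0% and 35.2%). In GILZ TG Abcg1 and Ch25h passed as higher and Srebf1 as lower (background 50.0%, 15.1% and 34.9%).

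**Figure D2:**
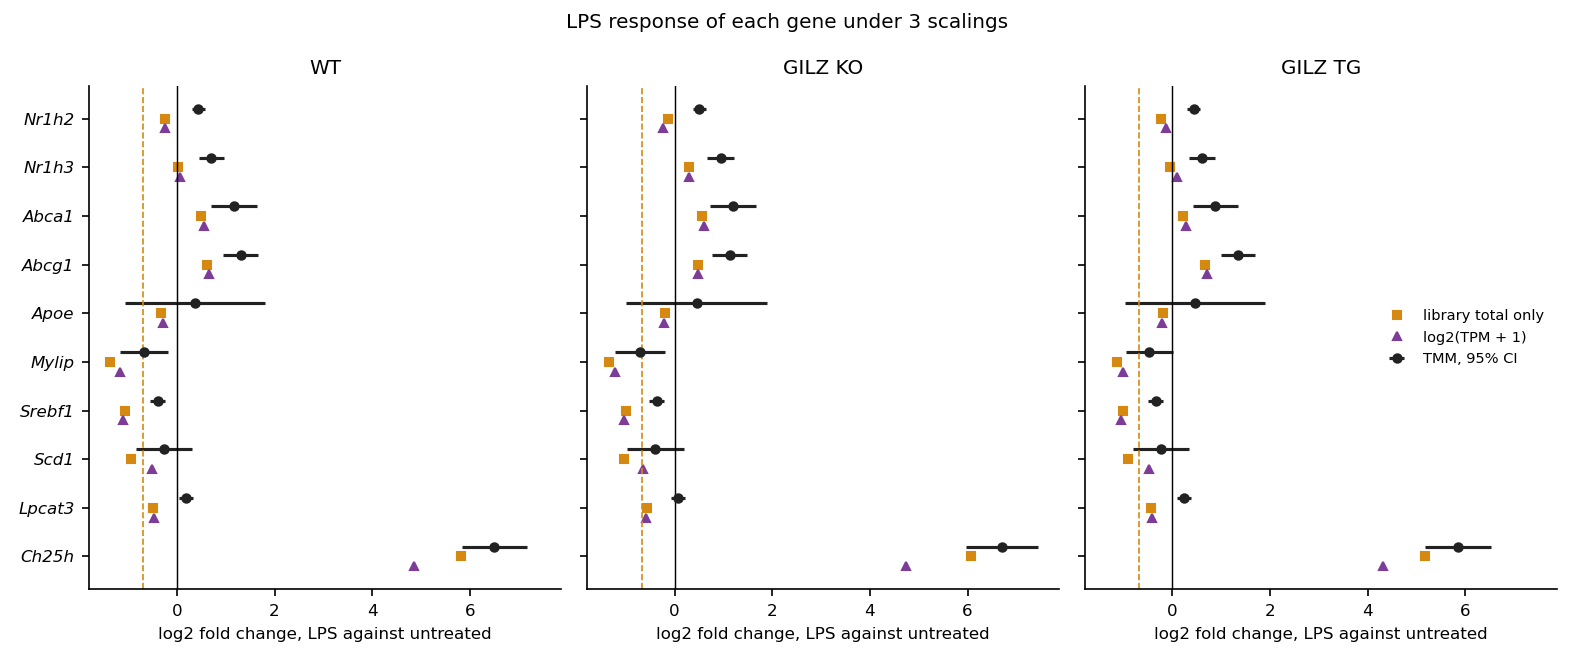
Log2 fold change of each gene after LPS (x axis) in WT, GILZ KO and GILZ TG, under TMM scaling (circles, 95% confidence interval), library total only (squares) and log2(TPM + 1) (triangles); the dashed line marks the median of all genes by library total. Nr1h2, Lpcat3 and Apoe change sign between scalings in all 3 genotypes and Nr1h3 does so in GILZ TG, whereas Abca1, Abcg1 and Ch25h stay above 0 and Mylip, Srebf1 and Scd1 stay below it.

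Of the receptors, Nr1h2 (GRCm38 chr7:44549616-44553951, minus strand) encodes LXRβ, found in most cell types. It stood at 80.9, 83.5 and 76.2 TPM in untreated WT and at 69.7, 61.8 and 70.3 TPM after LPS. Every LPS library thus lay lower on the TPM scale, as for 67.1% of all genes in WT. By TMM the same counts gave a log2 fold change of 0.44 (SE 0.06, edgeR's quasi-likelihood test, Benjamini-Hochberg adjusted p = 5.93e-06; the test behind the adjusted p-values below unless another is named), against −0.24 by library total and −0.25 in TPM. The same change of sign was met in GILZ KO (0.50 by TMM, −0.14 by library total) and in GILZ TG (0.43 and −0.24). Nr1h3 (chr2:91184061-91202834, minus strand) encodes LXRα, which is enriched in macrophages and liver and can raise its own transcription in human cells. Its TPM values in WT were 16.5, 12.5 and 12.2 untreated and 16.3, 14.8 and 12.0 after LPS and overlapped. TMM gave higher values in all 3 genotypes (log2 fold change 0.71 in WT, 0.94 in GILZ KO and 0.61 in GILZ TG), but by library total the values were 0.03, 0.30 and −0.06, of which the GILZ KO value passed (adjusted p = 0.0372), and in TPM none passed (lowest adjusted p = 0.13, limma).

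Abca1 (chr4:53030787-53159895, minus strand) encodes the transporter that loads cholesterol and phospholipid onto lipid-poor apolipoprotein A-I. Its level in WT was 23.3, 17.2 and 11.4 TPM untreated and 30.0, 22.2 and 23.5 TPM after LPS. The LPS values reached higher, although the lowest of them lay under the highest untreated value. In GILZ KO the libraries were tight, at 18.8, 19.6 and 18.6 TPM untreated and 29.1, 30.1 and 29.1 TPM after LPS, without overlap. In GILZ TG they were 20.4, 22.9 and 11.2 TPM and 19.0, 26.2 and 19.6 TPM, and overlapped. The log2 fold change by TMM was 1.17 in WT (SE 0.22, adjusted p = 0.000153), 1.20 in GILZ KO (SE 0.22, adjusted p = 0.000133) and 0.88 in GILZ TG (SE 0.22, adjusted p = 0.00188). By library total it was 0.49, 0.56 and 0.21, past the threshold in WT (adjusted p = 0.049) and GILZ KO (0.0284) but not in GILZ TG (0.387).

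Abcg1 (chr17:31057675-31117988, plus strand), which passes cholesterol on to high-density lipoprotein particles, rose in each genotype under all 3 scalings. It stood at 20.1, 14.5 and 13.8 TPM in untreated WT and at 29.3, 25.5 and 22.2 TPM after LPS, with no overlap. GILZ KO went from 18.1, 15.9 and 17.9 TPM to 25.7, 23.4 and 24.0 TPM, and GILZ TG from 24.9, 25.1 and 15.2 TPM to 33.9, 42.7 and 29.9 TPM. Neither pair of groups overlapped. The log2 fold changes were 1.30 in WT (SE 0.17, adjusted p = 2.05e-06), 1.12 in GILZ KO (SE 0.17, adjusted p = 1.42e-05) and 1.34 in GILZ TG (SE 0.16, adjusted p = 1.29e-06), and by library total 0.62, 0.49 and 0.67.

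The promoter of Abca1 is shown because it holds a DR4-like element that it shares with another of the 10 genes, Srebf1, whose transcript went the other way after LPS. RefSeq promoter windows on GRCm38.p6 (250 bases before to 50 bases after a start) were found for 8 of the 10 genes, in 13 windows; Abcg1 and Scd1 had no entry. A pair of AGGTCA hexamers in direct repeat with any 4 bases between them was searched on both strands, with up to 3 mismatches at the 12 defined positions. Abca1 and Srebf1 had a match, 2 of 8 genes, beside 6619 of all 27025 genes with windows. By window it was 2 of 13, beside 21.9% of all 32851 windows. The 2 matches shared the spelling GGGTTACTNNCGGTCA, which was written down after both had been seen. Exactly that spelling occurred in 3 of all 32851 windows, on either strand, and the third was that of Fasn, the fatty acid synthase gene and itself a target of LXR and of SREBP-1c. The stretches below run 5′ to 3′ on the strand of the gene up to the base before the start, with the element in capitals. On this strand the element reads as the reverse complement of that spelling. The Abca1 stretch (chr4:53159896-53160145, minus strand) and the Fasn stretch (chr11:120824548-120824797, minus strand) lie upstream of the GENCODE gene and outside any annotated gene. The Srebf1 stretch (chr11:60210472-60210721, minus strand) lies inside the annotated gene and outside its exons, before an internal start.
Abca1: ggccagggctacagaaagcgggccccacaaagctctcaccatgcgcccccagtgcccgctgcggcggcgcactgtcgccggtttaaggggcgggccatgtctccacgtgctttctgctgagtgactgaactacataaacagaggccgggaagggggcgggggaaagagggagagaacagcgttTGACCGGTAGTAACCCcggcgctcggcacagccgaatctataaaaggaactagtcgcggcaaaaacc
Srebf1: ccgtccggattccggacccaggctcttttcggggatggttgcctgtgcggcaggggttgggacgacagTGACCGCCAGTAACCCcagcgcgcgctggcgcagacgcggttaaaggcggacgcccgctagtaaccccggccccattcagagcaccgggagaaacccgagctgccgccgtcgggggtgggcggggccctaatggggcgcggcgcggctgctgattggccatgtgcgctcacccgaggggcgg
Fasn: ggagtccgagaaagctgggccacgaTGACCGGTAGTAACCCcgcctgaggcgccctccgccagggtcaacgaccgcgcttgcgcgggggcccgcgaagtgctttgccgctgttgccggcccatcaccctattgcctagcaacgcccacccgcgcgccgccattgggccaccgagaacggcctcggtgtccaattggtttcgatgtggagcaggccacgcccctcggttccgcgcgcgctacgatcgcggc
The 16 letters of the element are the same in Abca1 and Fasn, and begin 67 bases before the start in Abca1, 182 in Srebf1 and 225 in Fasn. Fasn fell after LPS, from 42.5, 37.7 and 34.5 TPM to 6.63, 8.39 and 9.76 TPM in WT (log2 fold change −1.45, SE 0.14, edgeR adjusted p = 5.47e-08). So of the 3 genes with this spelling, 1 rose and 2 fell. A match of letters is a description of these windows, and binding was not measured.

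Apoe (chr7:19696109-19699188, minus strand) encodes a lipoprotein that macrophages secrete and that takes up exported cholesterol. Its values in WT were 1459, 1149 and 335 TPM untreated and 1229, 901 and 279 TPM after LPS. In GILZ TG they were 2261, 3180 and 518 TPM and 2095, 2833 and 395 TPM, and in GILZ KO 376, 507 and 631 TPM and 308, 475 and 525 TPM. The level differed more between libraries of 1 group (7.18-fold between the highest and lowest GILZ TG library after LPS) than between treatments, and in each genotype the order of libraries 1 to 3 was the same with and without LPS. The LPS to untreated ratio of TPM for libraries of the same number ranged from 0.762 to 0.937 over the 9 numbers. The log2 fold change by TMM was 0.37 in WT (SE 0.68, adjusted p = 0.645), 0.45 in GILZ KO (adjusted p = 0.58) and 0.46 in GILZ TG (adjusted p = 0.571), and changed sign by library total (−0.32, −0.20 and −0.19). In GILZ TG, where libraries of the same number deviated together, the fit with the library number as a block gave 0.44 (adjusted p = 1.65e-05). That call is relative to the median gene, as the TPM was lower after LPS in each of the 3 numbers.

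Mylip (chr13:45389742-45412022, plus strand) encodes IDOL, a ubiquitin ligase that marks lipoprotein receptors for degradation. Its TPM values lay lower after LPS in every genotype without overlap. Of all genes, 67.1% did so in WT, 70.1% in GILZ KO and 67.4% in GILZ TG. Mylip went from 16.1, 13.7 and 9.61 TPM to 7.07, 5.07 and 3.72 TPM in WT. GILZ KO went from 13.5, 13.2 and 12.8 TPM to 6.2, 4.07 and 5.1 TPM, and GILZ TG from 16.7, 14.3 and 10.1 TPM to 6.89, 7.78 and 4.29 TPM. The log2 fold change by TMM was −0.68 in WT (SE 0.24, adjusted p = 0.0175), −0.71 in GILZ KO (SE 0.24, adjusted p = 0.0157) and −0.47 in GILZ TG (SE 0.23, adjusted p = 0.0809). The call in WT was lost without untreated library 1 (−0.56, adjusted p = 0.0683) or LPS library 3 (−0.46, adjusted p = 0.102), that in GILZ KO without LPS library 2 (−0.59, adjusted p = 0.0714), and GILZ TG passed without untreated library 3 (−0.65, adjusted p = 0.0243). By library total it was −1.36, −1.35 and −1.13, and all 3 passed. With the library number as a block the GILZ TG value was −0.49 (adjusted p = 0.000783).

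In the fatty acid and phospholipid arm, Srebf1 (chr11:60199089-60222581, minus strand) encodes SREBP-1, the transcription factor of fatty acid synthesis genes. It stood between 60.6 and 71.6 TPM in all 9 untreated libraries and between 26.0 and 35.9 TPM in all 9 after LPS. The LPS libraries lay below the untreated ones without overlap in each genotype, as for 67.1% (WT), 70.1% (GILZ KO) and 67.4% (GILZ TG) of all genes. The individual WT values were 67.5, 64.1 and 60.6 TPM and then 26.0, 30.8 and 30.9 TPM. By TMM the log2 fold change was −0.39 in WT (SE 0.07, adjusted p = 0.000123), −0.36 in GILZ KO and −0.34 in GILZ TG, and by library total −1.07, −1.001 and −1.01. Counts are per gene, so the start with the shared element and the upstream start of Srebf1 were not told apart. Exons of Srebf1 also share 109 bases with the opposite-strand gene Rai1, and counting by strand is not given in the sources used here.

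Scd1 (chr19:44394455-44407879, minus strand), a stearoyl-CoA desaturase, was barely transcribed, with 32 to 165.6 expected counts, whole in 3 of the 18 libraries. The Scd genes are close paralogs, and its values are uncertain where reads were split among them. It stood at 1.43, 1.52 and 2.35 TPM in untreated WT and at 0.85, 0.52 and 1.48 TPM after LPS. By TMM it did not pass in any genotype (log2 fold change −0.27 in WT, −0.40 in GILZ KO, −0.24 in GILZ TG), while by library total it passed in all 3 (−0.94, −1.04 and −0.90). Without LPS library 3 of WT the WT value by TMM was −0.73 (adjusted p = 0.0176). Lpcat3 (chr6:124663027-124704418, plus strand) is the acyltransferase that places polyunsaturated chains into membrane phospholipids. On the TPM scale it went from 51.2, 52.5 and 51.2 to 34.5, 39.5 and 37.8 in WT, lower without overlap, as did 67.1% of all genes. Its sign turned with the scaling: 0.19 by TMM in WT (SE 0.07, adjusted p = 0.0206) and −0.49 by library total (adjusted p = 7.95e-06), with −0.57 in GILZ KO and −0.43 in GILZ TG by library total. The TMM call in WT was lost without any 1 of 5 of the 6 WT libraries, the exception being LPS library 1 (adjusted p up to 0.148), and that in GILZ TG (0.24, adjusted p = 0.00476) without untreated library 2 (0.14, adjusted p = 0.0797). Lpcat3 shares 334 exon bases with the opposite-strand gene Emg1 (up to 138 TPM), which leaves its counts less certain.

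Ch25h (chr19:34473778-34475164, minus strand), which makes 25-hydroxycholesterol, an LXR ligand that also holds back SREBP processing, had the largest change of the 10. It stood at 0.47, 0.85 and 1.49 TPM in untreated WT and at 42.9, 50.8 and 70.0 TPM after LPS. GILZ KO went from 0.43, 0.83 and 0.68 TPM to 35.5, 48.0 and 46.7 TPM, and GILZ TG from 1.24, 1.26 and 0.79 TPM to 35.1, 35.4 and 53.2 TPM. All 9 LPS libraries lay above all 9 untreated ones. The fold change was 90.8 in WT (log2 6.50, 95% interval 5.83 to 7.17, adjusted p = 6.52e-12), 104 in GILZ KO (log2 6.70) and 57.7 in GILZ TG (log2 5.85), with as few as 8 counts in an untreated library. By library total the log2 values were 5.83, 6.06 and 5.17. The bases before its start, shown because the other 7 genes with windows did not hold it, contain 1 exact cyclic AMP response element (TGACGTCA, a palindrome, present in 1.79% of all windows). They are printed up to the first base that GENCODE places in the Ch25h exon, chr19:34475165-34475398 on the minus strand, with the element in capitals. The stretch overlaps an exon of the opposite-strand transcript Gm26902, which shares 159 exon bases with Ch25h and did not exceed 0.71 TPM.
Ch25h: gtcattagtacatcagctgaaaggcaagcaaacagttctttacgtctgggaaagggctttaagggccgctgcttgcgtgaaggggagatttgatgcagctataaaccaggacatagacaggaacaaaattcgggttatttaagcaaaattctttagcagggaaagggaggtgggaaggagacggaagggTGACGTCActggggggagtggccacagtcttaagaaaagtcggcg

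Between genotypes, 1 of the 10 genes passed the threshold, in 1 of 6 comparisons: Abcg1 after LPS was lower in GILZ KO compared with GILZ TG. Between GILZ KO and WT none passed the threshold, untreated (background 0.0951% of 12621 genes) or after LPS (0.0822% of 12164 genes). edgeR also gave none at an unadjusted p under 0.05, and DESeq2 and limma gave 0. Between GILZ TG and WT edgeR called 0 untreated (background 0.642%; 1 gene, Abcg1, at an unadjusted p under 0.05; 0 by DESeq2 and limma). After LPS it called 0 (background 0.460%; Abcg1 at an unadjusted p under 0.05; DESeq2 called it and limma did not). Between GILZ KO and GILZ TG edgeR called 0 untreated (background 4.94%; Nr1h2, Apoe and Scd1 at an unadjusted p under 0.05; 0 by DESeq2 and limma). After LPS it called 1, Abcg1 (background 2.60%, of which 1.38% were the lower ones; Nr1h3, Abca1 and Apoe further at an unadjusted p under 0.05; 1 by DESeq2, 0 by limma). In TPM, no gene of the 10 was free of overlap between GILZ KO and WT untreated (17.4% of all genes were) or between GILZ TG and WT untreated (15.0%). After LPS it was 1 between GILZ KO and WT, Nr1h3 (16.8%), and 2 between GILZ TG and WT, Abcg1 and Nr1h2 (15.6%). Between GILZ KO and GILZ TG it was 1 untreated, Scd1 (29.2%). After LPS, 2 lay above in GILZ KO (Abca1 and Nr1h3) and 2 below (Abcg1 and Nr1h2), beside 21.2% of all genes. Comparisons of 1 treatment share libraries.

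The size of a difference that could have gone unseen differed between genes. For Srebf1 the 6 genotype differences lay between 0.00 and 0.08 on the log2 scale, and their 95% intervals together ran from −0.16 to 0.24. For Nr1h2 and Lpcat3 the intervals stayed within −0.28 and 0.27. For Nr1h3 they ran from −0.49 to 0.58, for Abcg1 from −0.82 to 0.82 and for Scd1 from −0.75 to 1.02. For Abca1 they ran from −0.59 to 0.64, for Mylip from −0.87 to 0.81 and for Ch25h from −1.84 to 1.19, and for Apoe from −3.34 to 2.40.

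**Figure D3:**
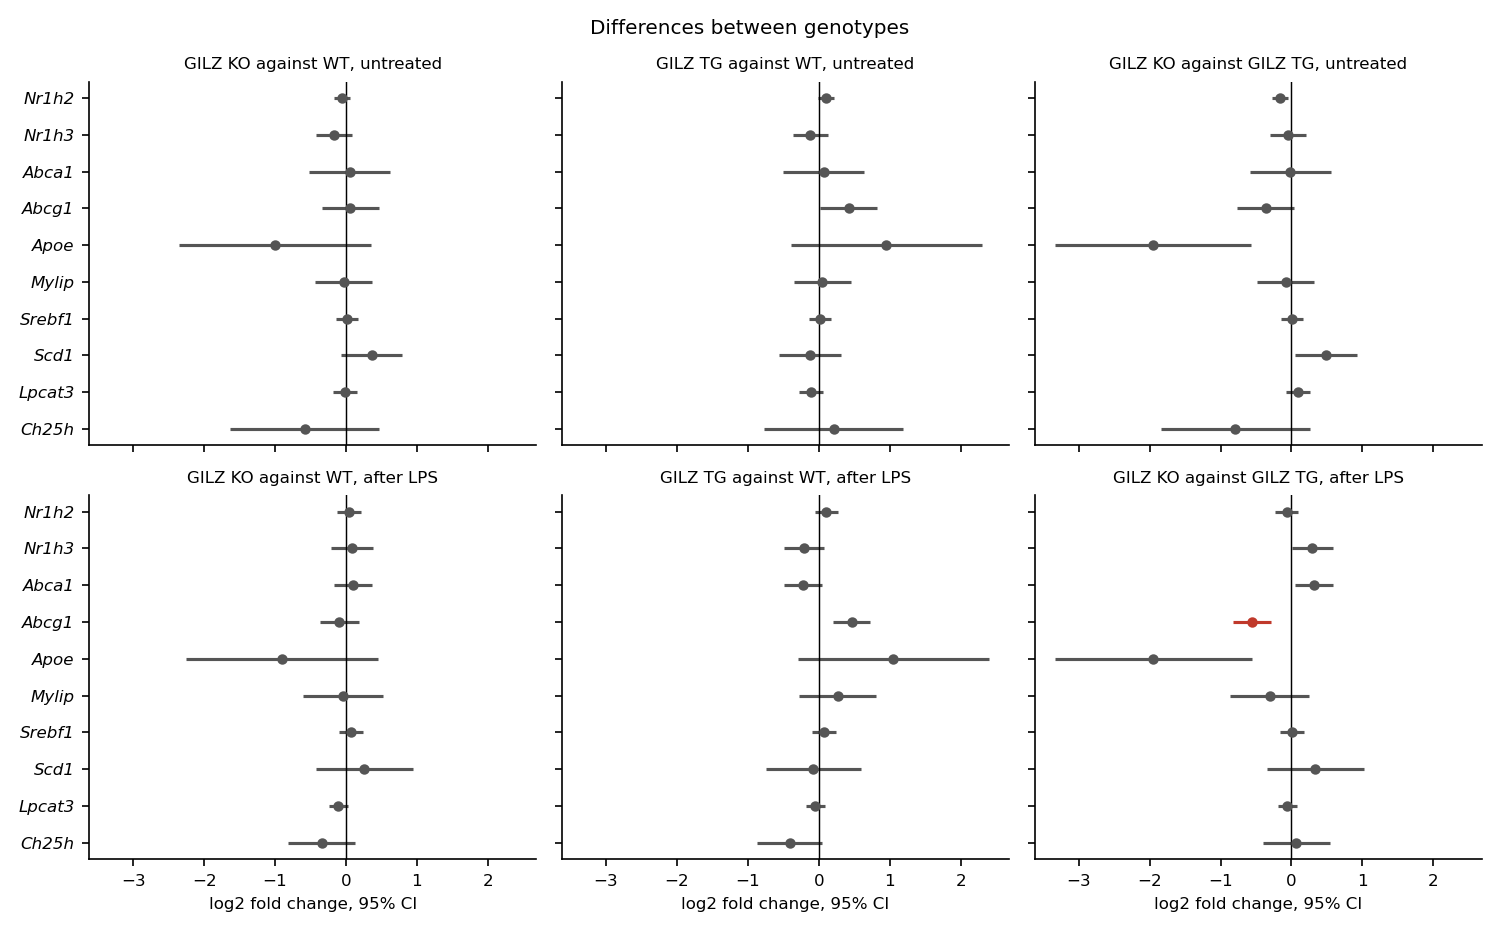
Log2 fold change of each gene between genotypes (x axis, 95% confidence interval, edgeR) in the 3 comparisons of untreated cells and the 3 of LPS-treated cells; the red point passed an adjusted p of 0.05. That point is Abcg1 in GILZ KO against GILZ TG after LPS, at −0.56, and the widest intervals are those of Apoe and, in untreated cells, Ch25h.

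After LPS, Abcg1 was highest in GILZ TG, and its 3 GILZ TG libraries (33.9, 42.7 and 29.9 TPM) all lay above the 3 of GILZ KO (25.7, 23.4 and 24.0 TPM) and above the 3 of WT (29.3, 25.5 and 22.2 TPM). Among all genes, 21.2% of 11453 did not overlap between GILZ KO and GILZ TG after LPS and 15.6% of 11427 did not between GILZ TG and WT. The log2 fold change of GILZ KO against GILZ TG was −0.56 (SE 0.12, 95% interval −0.82 to −0.29, adjusted p = 0.0407) and that of GILZ TG against WT 0.47 (SE 0.12, adjusted p = 0.122). The call of GILZ KO against GILZ TG was lost when any 1 of 5 of the 6 libraries was left out (adjusted p = 0.113 to 0.154). It was also lost in limma on TPM (0.0968) and in the fit of all 18 libraries (0.0505). Without libraries 1 and 2 of GILZ TG, which carried the stromal and immunoglobulin transcripts, the difference was −0.35 (adjusted p = 0.409). That fit has 1 GILZ TG library, assumed to vary like the other groups. Without library 3 of GILZ TG, whose level was the lowest of the 3, GILZ KO against GILZ TG was −0.65 (adjusted p = 0.0055) and GILZ TG against WT 0.56 (adjusted p = 0.0143) after LPS. Untreated, the same omission took these from −0.36 (adjusted p = 0.246) to −0.56 (0.0194) and from 0.42 (adjusted p = 0.325) to 0.62 (0.0193). Leaving out the lowest library widens both differences by construction. After LPS, calls over all genes rose from 316 to 1403 (GILZ KO against GILZ TG) and from 56 to 1067 (GILZ TG against WT). In untreated cells they rose from 623 to 1306 and from 81 to 665. Untreated, library 3 of GILZ TG (15.2 TPM) lay within the range of WT and below all 3 of GILZ KO.

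Apoe showed the widest gap between genotype means and the least even one. The log2 fold change of GILZ KO against GILZ TG was −1.95 untreated (SE 0.62, adjusted p = 0.0893) and −1.95 after LPS (SE 0.63, adjusted p = 0.121), and neither passed. Libraries 1 and 2 of GILZ TG stood at 2095 to 3180 TPM, whereas library 3, at 518 and 395 TPM, lay among those of GILZ KO. Without libraries 1 and 2 of GILZ TG the difference was −0.02 untreated and 0.11 after LPS. Without library 3 it was −2.41 untreated (adjusted p = 0.00981) and −2.41 after LPS (adjusted p = 0.00794). Omitting the lowest library widens the difference by construction. Calls over all genes then rose from 623 to 1306 untreated and from 316 to 1403 after LPS. The same 2 GILZ TG libraries held the high stromal markers, with Col1a1 at 44.2 and 51.3 TPM untreated against 5.0 TPM in library 3. Within untreated WT, where Apoe stood at 1459, 1149 and 335 TPM, the 10 stromal markers summed to 24.3, 12.1 and 15.4 TPM and the 8 neutrophil lineage markers to 54.9, 61.2 and 23.8 TPM. Library 1 was highest for Apoe and the stromal markers, but library 2 for the neutrophil lineage markers. Library 3 was lowest for Apoe and the neutrophil lineage markers, but library 2 for the stromal markers. Within untreated GILZ KO, with Apoe at 376, 507 and 631 TPM, these sums were 12.4, 5.5 and 12.9 TPM and 47.0, 60.4 and 31.0 TPM. There library 3 was highest for Apoe and the stromal markers and lowest for the neutrophil lineage markers. The part of these other cells in the level of Apoe was not tested, and in bulk RNA fewer cells of a type and less RNA per cell cannot be told apart.

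**Figure D4:**
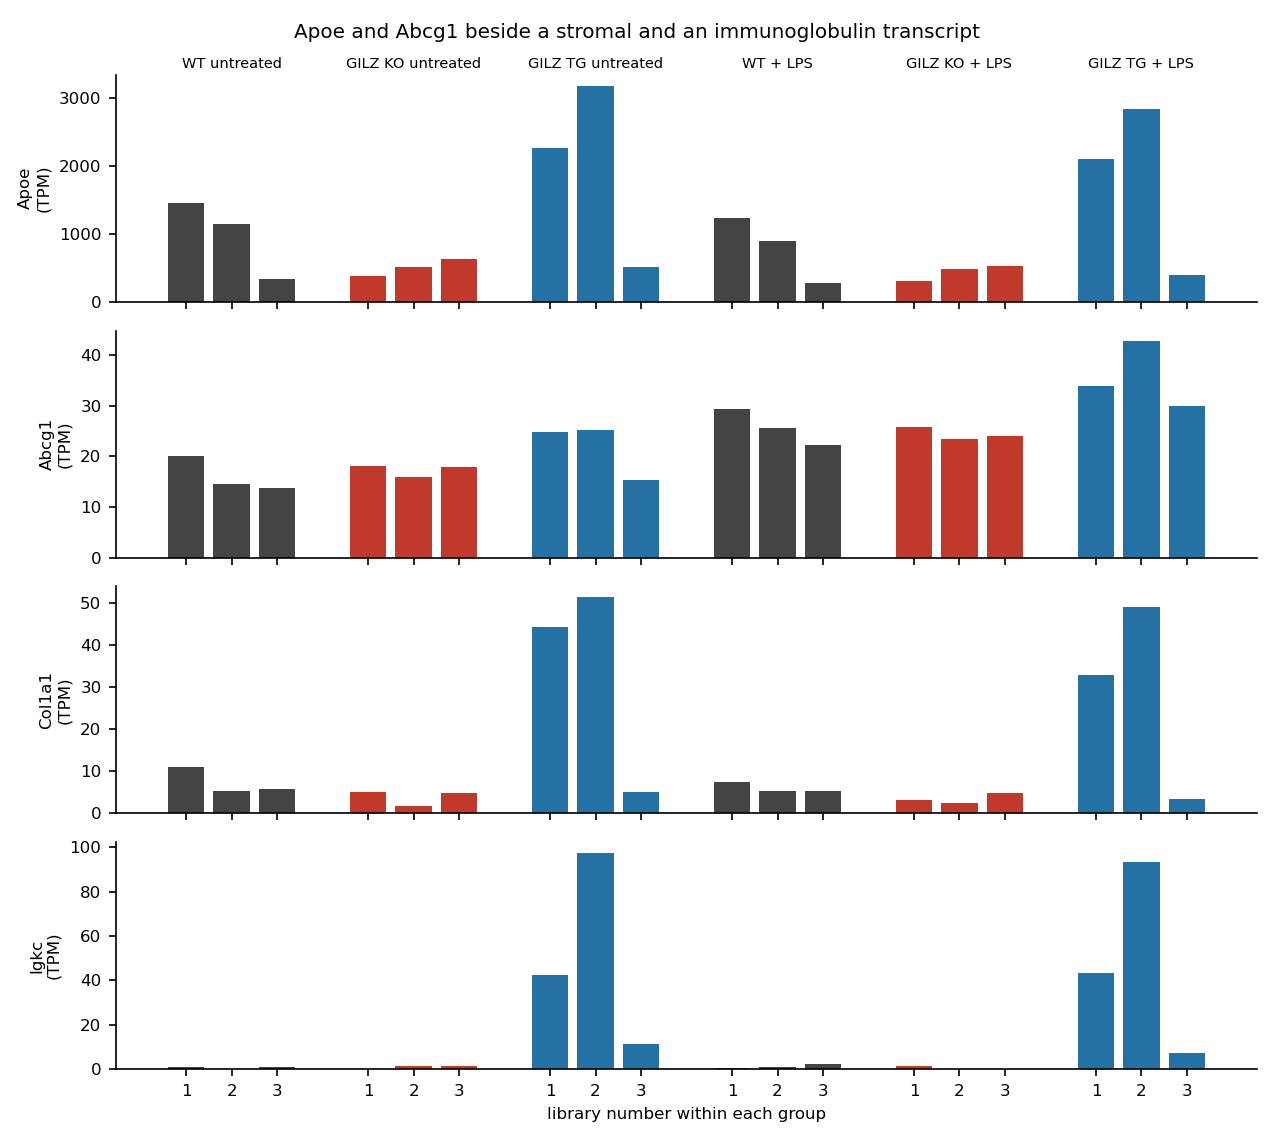
TPM (y axes, from 0) of Apoe, Abcg1, the stromal collagen gene Col1a1 and the immunoglobulin gene Igkc in the 3 numbered libraries of each group. Libraries 1 and 2 of GILZ TG are highest for all 4 genes with and without LPS.

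The remaining receptor, transporter and desaturase differences did not pass the threshold. After LPS, all 3 libraries of Abca1 (29.1 to 30.1 against 19.0 to 26.2 TPM) and of Nr1h3 (16.7 to 19.6 against 11.8 to 15.7 TPM) were above those of GILZ TG in GILZ KO, with log2 differences of 0.32 (SE 0.12, adjusted p = 0.18) and 0.29 (SE 0.13, adjusted p = 0.257). Among all genes, 21.2% of 11453 did not overlap in that comparison. Nr1h2 gave −0.16 for untreated GILZ KO against GILZ TG with overlap of the groups in TPM (adjusted p = 0.0917). After LPS its TPM did not overlap (66.4 to 72.9 in GILZ KO, 76.0 to 79.4 in GILZ TG), at a log2 difference of −0.07 (adjusted p = 0.681). The GILZ TG libraries also lay above those of WT (61.8 to 70.3 TPM), at a log2 difference of 0.11 (adjusted p = 0.54), beside 15.6% of all genes without overlap. Untreated, Scd1 was at 2.32, 2.27 and 2.42 TPM in GILZ KO and 1.76, 1.59 and 1.56 TPM in GILZ TG (log2 difference 0.48, adjusted p = 0.169), and was the 1 gene of the 10 without overlap there, beside 29.2% of all genes.

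Whether GILZ changed the response to LPS was tested as the difference of the log2 fold changes between genotypes. None of the 10 genes passed in any of the 3 comparisons by edgeR, DESeq2 or limma, and none had an unadjusted edgeR p under 0.05 (background 0.0152%, 0.00759% and 0.121% of 13169 genes). The differences lay between −0.18 and 0.23 for GILZ KO against WT, between −0.65 and 0.21 for GILZ TG against WT and between −0.24 and 0.85 for GILZ KO against GILZ TG. The largest was that of Ch25h in GILZ KO against GILZ TG (0.85, 95% interval −0.43 to 2.13, adjusted p = 0.725), a gene with few counts in untreated cells.

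Other genes of sterol handling were counted in 7 lists of 65 genes, of which 56 had enough counts. In WT 18 were higher and 26 lower after LPS, 44 of 56, beside the background of 68.6%, and their median log2 fold change was −0.20 (−0.27 in GILZ KO, −0.13 in GILZ TG). Under all 3 scalings 6 were higher and 25 lower, beside 15.5% higher and 34.9% lower over all genes (50.4% in all), and 17 changed sign with the scaling. Of 13 receptor partners and cofactors, 4 were higher and 7 lower in WT by TMM, and 1 was higher and 7 lower under all 3 scalings. Rxra, the main partner of LXR in myeloid cells, fell from 9.93, 6.96 and 5.36 TPM to 1.18, 1.44 and 0.84 TPM (log2 fold change −2.24, SE 0.25, adjusted p = 4.12e-07). The corepressor-complex gene Tbl1x (0.89) and the coactivator gene Ncoa3 (0.65 by TMM, −0.03 by library total) were the highest of that list.

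Of 15 further LXR targets tested in WT, 5 were higher and 6 lower by TMM. Under all 3 scalings 1 was higher and 6 lower, beside 15.5% and 34.9% of all genes. A further 6 changed sign, so the balance of directions depended on the scaling. The GTPase gene Arl4c fell from 32.5, 31.8 and 31.0 TPM to 3.61, 2.23 and 3.11 TPM (log2 fold change −2.78), and the desaturase gene Scd2 from 34.0, 31.3 and 29.3 TPM to 1.87, 1.78 and 2.86 TPM (−3.23). Rnf145, a ligase gene that acts in sterol sensing, rose from 14.2, 12.6 and 14.7 TPM to 33.5, 30.2 and 38.7 TPM (1.95), and Mertk, a receptor for dying cells at no more than 7.33 TPM in any library, by 1.26 under TMM. All 4 oxysterol genes tested were lower: Gpr183, a receptor for a dihydroxylated oxysterol made from the product of Ch25h, fell from 28.4, 25.7 and 21.5 TPM to 1.0, 0.67 and 0.61 TPM (log2 fold change −4.41), and Hsd3b7, which acts on the same route, by 0.94 on the log2 scale.

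Of 9 genes of cholesterol storage and lysosomal export, 2 were higher and 3 lower in WT. Stard3, a late endosomal sterol carrier, rose from 61.7, 61.6 and 56.5 TPM to 164, 151 and 148 TPM (log2 fold change 1.97) and Npc2, a lysosomal sterol carrier, by 1.07. Scarb1, a receptor that exchanges cholesterol with lipoproteins, and Nceh1, an ester hydrolase, were at −0.60 and −0.51. Of the receptors that IDOL marks, Lrp8 fell by 1.48 on the log2 scale, while Vldlr was listed at or under 0.34 TPM throughout. Of 7 SREBP2 genes tested, 5 were higher by TMM, led by Hmgcs1 (0.87), but 4 of the 7 changed sign with the scaling, and Sqle fell under all 3 (−0.995 by TMM). Of 5 other lysophospholipid acyltransferases, Lpcat2 was higher (0.99) and 3 were lower, led by Lpcat1 (−1.32) and Mboat1 (−0.83).

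**Figure D5:**
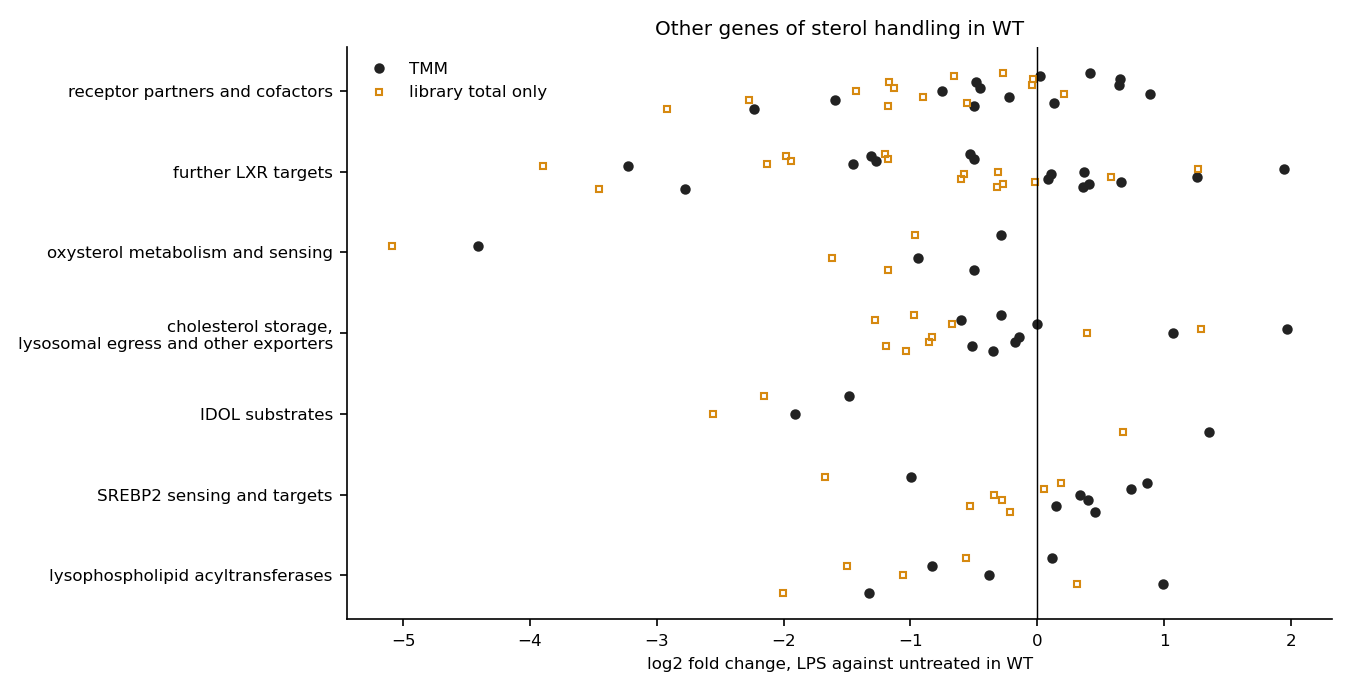
Log2 fold change after LPS in WT (x axis) of the 56 tested genes of 7 sterol-handling lists (rows), by TMM (filled circles) and by library total only (open squares). Gpr183, Scd2 and Arl4c lie farthest to the left and Stard3 and Rnf145 farthest to the right under both scalings, and many genes near 0 sit on different sides of it in each.

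Between genotypes, 3 of these genes passed. They were listed as further LXR targets and did not share a direction. For GILZ KO against GILZ TG there were 3 of the 55 tested untreated (background 4.94%) and 1 of 54 after LPS (2.60%). Both counts were near the background. For GILZ TG against WT it was 1 of 55 untreated (0.642%) and 0 after LPS. None passed for GILZ KO against WT. Smpdl3a, a secreted phosphodiesterase, stood at 74.7, 74.5 and 72.0 TPM in untreated GILZ KO and at 52.3, 56.9 and 60.1 TPM in GILZ TG, without overlap (log2 fold change 0.35, SE 0.06, adjusted p = 0.0188). After LPS it was 0.27 (adjusted p = 0.0461). Cd5l, a secreted inhibitor of macrophage apoptosis, stood at 416, 386 and 406 TPM in untreated GILZ KO against 283, 297 and 215 TPM in GILZ TG (0.57, SE 0.10, adjusted p = 0.0176). Arl4c differed in the other direction, with lower values for GILZ KO (33.3, 33.1 and 33.9 TPM) than for GILZ TG (36.8, 40.8 and 38.0 TPM; −0.24, SE 0.05, adjusted p = 0.0332), and it was higher in GILZ TG than in WT (0.27, SE 0.05, adjusted p = 0.0482). These counts depended on single libraries. For GILZ KO against GILZ TG untreated the 3 became 0 without any 1 GILZ KO library and 1 without GILZ TG library 2. The count became 13 without GILZ TG library 3, but calls over all genes then rose too, to 1306 of 12893 from 623 of 12621. After LPS the 1 became 0 without any 1 GILZ KO library or GILZ TG library 1 or 2, in limma on TPM and by library total. It became 8 without GILZ TG library 3, with 1403 of 12524 genes called over all, beside 316 of 12164 in the main fit. For GILZ TG against WT untreated the 1 became 4 without GILZ TG library 3, with 665 of 12893 genes called over all, beside 81 of 12621. It became 0 without any 1 WT library or GILZ TG library 1 or 2. It was also 0 with the library number as a block, in limma on TPM and in the fit of all 18 libraries.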

How the data were processed

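Bone marrow-derived macrophages of 3 genotypes were sequenced untreated or after LPS as poly(A) RNA, 75 nt single-end. The authors checked reads with FastQC 0.11.2 and ran the grape-nf workflow against GRCm38 (mm10). For each library they deposited a gene table in the layout of RSEM, which holds expected counts (estimated reads per gene, not normalised) and TPM, which the authors' workflow scaled by effective transcript length and to the same total in each library. Whether counting used the strand is not given in the sources used here. Their comparison tables (DESeq2 1.40.2 per the labels) hold fold changes and p-values, which were not used; of these deposited tables only gene symbols and identifiers were read. In 14 files an empty last row was left out.

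The 10 genes and the lists were chosen with earlier results of these data known. There were 7 pathway lists and 9 marker lists. The alternative of scaling by library total was chosen after seeing the data. Expected counts were rounded, filtered with filterByExpr, scaled by TMM and fitted with edgeR 4.0.16 in R 4.3.3 (quasi-likelihood test, Benjamini-Hochberg adjustment over all genes kept, threshold 0.05). LPS effects and their differences came from 1 fit of all 18 libraries, and genotype comparisons from the 9 libraries of a treatment. limma 3.58.1 was run on log2(TPM + 1) or log2(TPM + 0.1), and DESeq2 1.42.0 on the rounded counts. Fold changes on the log2(TPM + pseudocount) scale understate the change of low genes. From a pathway list, genes past the threshold between genotypes and the 2 with the largest change in each direction after LPS in WT were named; Fasn was named for its promoter. Some genes that this rule names are not reported here. Tables and figures were made with Python 3.11.15, pandas 2.3.3, numpy 2.4.6 and matplotlib 3.10.9.

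Libraries of 1 group differed by more than sampling noise, and no 2 files were identical. The deviations of same-numbered untreated and LPS libraries from their group means correlated at 0.266, 0.397 and 0.605 in GILZ TG, so numbers were taken as pairs there. In WT (−0.013 to 0.264) and GILZ KO (−0.033 to 0.095) they were not taken as pairs, although the labels do not state whether equal numbers are 1 animal. Pairing there is undecided, as Apoe kept the order of its numbered libraries with and without LPS in both genotypes. If numbers are pairs, the unblocked p-values for LPS include the spread between preparations. On simulated counts for GILZ KO against GILZ TG after LPS (12080 genes, 200 of them changed), 90% of genes changed by 1 on the log2 scale and 97% of those changed by 2 were recovered, and 3.11% of calls were false. For LPS in WT (12981 genes) these were 92%, 100% and 3.52%. Here too 200 genes were changed, whereas LPS moved most of the transcriptome. The simulation therefore cannot test the scaling in that setting, and its rates do not apply to the LPS calls.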

Additional observations from a re-analysis of the deposited data

Results flagged for a closer look

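The LPS response of Tsc22d3, the targeted gene, differed between GILZ KO and WT by 2.02 on the log2 scale (SE 0.22, edgeR interaction test, adjusted p = 0.000782). It differed between GILZ TG and WT by 1.43 (SE 0.16, adjusted p = 0.00139), with 15.8, 14.9 and 18.8 TPM untreated and 4.56, 5.81 and 5.09 TPM after LPS in WT.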

How the results depend on the processing

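Scaling moved the LPS results most, and the sign of Nr1h2, Apoe and Lpcat3 turned in all 3 genotypes. In log2(TPM + 1), log2(TPM + 0.1) and by library total, Nr1h2 was at −0.2517, −0.2548 and −0.2419 in WT, at −0.2396, −0.2424 and −0.1365 in GILZ KO and at −0.132, −0.1335 and −0.2385 in GILZ TG. Apoe was at −0.2873, −0.2877 and −0.3221 in WT, at −0.2149, −0.2154 and −0.1969 in GILZ KO and at −0.2226, −0.2229 and −0.19 in GILZ TG. Lpcat3 was at −0.4614, −0.4709 and −0.4889 in WT, at −0.5864, −0.5988 and −0.5741 in GILZ KO and at −0.4197, −0.4286 and −0.4319 in GILZ TG. Nr1h3 was at −0.0592 in GILZ TG by library total. Without libraries 1 and 2 of GILZ TG, Abcg1 was at −0.074 for untreated GILZ TG against WT and 0.1343 for untreated GILZ KO against GILZ TG, and Apoe at −0.9834 (untreated) and −1.0163 (LPS) for GILZ TG against WT and 0.1134 for GILZ KO against GILZ TG after LPS.

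The number of the 10 genes past the threshold moved as follows. For GILZ KO against GILZ TG it was 1 untreated with no filter, and after LPS 2 with no filter and 0 in log2(TPM + 1), in log2(TPM + 0.1), in the fit of all 18 libraries and without libraries 1 and 2 of GILZ TG. For GILZ TG against WT after LPS it was 1 by DESeq2 and 1 with no filter. Leaving out 1 library at a time gave 0 to 2 for GILZ KO against GILZ TG in either treatment and 0 to 1 for GILZ TG against WT in either treatment. The highest of these came without GILZ TG library 3, where calls over all genes also rose. They were then 1306 untreated and 1403 after LPS for GILZ KO against GILZ TG, and 665 and 1067 for GILZ TG against WT. The other 110 counts under alternatives stayed within 1.5 times, with counts that stayed at 0 among them. These are totals of higher and lower calls, and the split by direction moved for LPS. From TMM to library total it went from 6 higher and 2 lower to 3 and 5 in WT. In GILZ KO it went from 5 and 2 to 4 and 4, and in GILZ TG from 6 and 1 to 2 and 5. Leave-one-out ranges that crossed 0 were −0.018 to 0.2252 (untreated) and −0.205 to 0.0141 (LPS) for Abcg1 in GILZ KO against WT. After LPS they were −0.005 to 0.9509 for Apoe in GILZ TG, −0.0937 to 0.7866 for Apoe in WT, −0.0069 to 0.0831 for Lpcat3 in GILZ KO and −0.7319 to 0.006 for Scd1 in WT. The call of Mylip was lost in WT without untreated library 1 (adjusted p = 0.0683) or LPS library 3 (0.102) and in GILZ KO without LPS library 2 (0.0714). The cause of these changes was not tested.

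With the library number as a replicate block in edgeR, the LPS effect on Apoe passed in WT (0.34, adjusted p = 0.000134) and GILZ KO (0.44, adjusted p = 1.84e-05). Numbers were not taken as pairs in WT and GILZ KO, but the labels do not state whether they are. Beside these Apoe values and the GILZ TG values given with the results, the block changed no other call of the 10 genes. Depth limited Ch25h in untreated cells and Scd1 throughout.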
